A study of Mus musculus with 14 samples.

Results

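The regions described here are stretches of the mouse genome away from gene ends that carried histone H3 lysine 9 crotonylation (H3K9cr) in control kidneys and lost it after unilateral ureteric obstruction (UUO). They were chosen by the H3K9cr peak lists themselves. The peaks of 8 H3K9cr libraries were pooled, overlapping peaks were merged, and only autosomes were used. A merged region entered when it did not overlap the 3 kb either side of any gene end and had a peak in at least 3 of 4 control libraries and in 0 of 4 UUO libraries. Of 70117 merged autosomal regions, 42318 lay outside the gene-end windows and are called distal, and 2314 of these met the rule and are called lost regions. They made up 5.47% of all distal regions, a share that the rule itself set.

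The study asked how ACSS2, an enzyme that makes acyl-CoA from short-chain acids, affects H3K9cr in kidney fibrosis. Chromatin from whole kidneys of young adult C57BL/6J mice was precipitated with antibodies against H3K9cr or acetylated H3K9 (H3K9ac) and sequenced. In the UUO groups the left ureter was ligated and cut, and sham-operated mice served as controls. ACSS2-/- mice lacked the enzyme in every cell.

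H3K9cr was profiled in 2 WT control, 2 ACSS2-/- control, 2 WT UUO and 2 ACSS2-/- UUO libraries. H3K9ac was profiled in 1 WT control, 1 ACSS2-/- control, 2 WT UUO and 2 ACSS2-/- UUO libraries. The days from surgery to harvest and any pooling of animals are not given in the labels of these libraries, so the spread between libraries may be partly technical.

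Crotonylation and acetylation of histone H3 lysine 9 are acyl marks of open, active chromatin, placed by overlapping sets of acyltransferases from crotonyl-CoA and acetyl-CoA. Besides promoters they occupy enhancers, distal elements that set the expression of genes in particular cell types. The kidney is dominated by proximal tubule cells, which live on fatty acid oxidation, and UUO is a standard model in which tubules atrophy while inflammatory and matrix-producing cells accumulate.

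The H3K9cr lists held 32945 and 36485 peaks in WT control, 45014 and 37456 in ACSS2-/- control, 36734 and 30406 in WT UUO and 35638 and 27530 in ACSS2-/- UUO kidneys. The H3K9ac lists held 25585 peaks in WT control and 32760 in ACSS2-/- control, and 15988, 18580, 17271 and 24571 in WT UUO 1, WT UUO 2, ACSS2-/- UUO 1 and ACSS2-/- UUO 2. All 4 H3K9ac lists of UUO kidneys were therefore shorter than both control lists. The H3K9cr lists overlapped in size between treatments, although within ACSS2-/- both UUO lists were shorter than both control lists. The lists give positions only, so read depth is unknown and a missing peak means a region not called, not a region without the mark.

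The tissue label was checked on 11 kidney genes. Peaks stood at the ends of 6 to 9 of them in every library, with Lrp2, Umod, Pax8 and Cdh16 marked in all 14 libraries and the podocyte gene Nphs1 in none. Of 11 genes of other tissues, 3 or 4 had an end peak, among them Apoa2, Sftpc and Actn3 in every library and Alb in none. Peaks at the ends of Acss2 itself were present in all 14 libraries, knockout included; the deleted part of the gene is not given in the labels, so this does not test the genotype.

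Libraries also differed in sex marks. Peaks at 4 of 4 Y-linked genes (Ddx3y, Kdm5d, Eif2s3y and Uty) appeared in H3K9cr libraries WT control 2, ACSS2-/- control 1, WT UUO 1 and ACSS2-/- UUO 1, and the other 4 H3K9cr libraries had a peak at Xist and none at these genes. Each treatment thus held 2 H3K9cr libraries of each kind, whereas among H3K9ac libraries only WT control 2 and ACSS2-/- UUO 2 had the Y-linked peaks. For 4 libraries the peak names carry another number than the label does. Libraries of the 2 marks with the same number in the peak names had the same sex marks, but those with the same label number did not for WT UUO 1, ACSS2-/- UUO 1 and ACSS2-/- UUO 2, so label numbers were not taken to pair the marks by animal. The labels also give another antibody number to each group within a mark, whereas the study names a single antibody per mark, so the numbers may be an error of entry. An antibody that did differ by group could not be told apart from the treatment.

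Lost regions were a sizeable part of what control kidneys shared. Of 10189 distal regions with an H3K9cr peak in at least 3 control libraries, 22.7% had none in any UUO library and 4953 had one in at least 3 UUO libraries; the latter are called kept regions and serve as the comparison set. In the opposite direction 770 distal regions, 1.82% of all distal regions, had a peak in at least 3 UUO and no control library, and these gained regions were 11.1% of the 6913 regions shared by at least 3 UUO libraries. The direction and size of both counts follow from the H3K9cr lists and were not tested.

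The control libraries contributed unequally. WT control 1 had a peak in 1772 lost regions, WT control 2 in 1887, ACSS2-/- control 1 in 2260 and ACSS2-/- control 2 in 1970. A peak was present in all 4 control libraries for 947 lost regions and in exactly 3 for the other 1367. Among the latter the missing library was WT control 1 for 542 regions, WT control 2 for 427, ACSS2-/- control 2 for 344 and ACSS2-/- control 1, the longest list, for only 54. With 2 control libraries per genotype the rule itself requires a peak in both genotypes. Both ACSS2-/- control lists were longer than both WT lists, so list length and genotype cannot be told apart in these counts.

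Around the threshold the regions changed gradually, although merged width depends in part on how many libraries were merged into a region. The 1367 regions just inside the threshold, with 3 control libraries, had a median width of 1170 bp and a median mean control peak of 709 bp. Just outside stood 3018 regions with 2 control and no UUO libraries, with a median width of 819 bp and a median control peak of 588.5 bp, and 1589 regions with at least 3 control and 1 UUO library, with a median width of 1586 bp and a median control peak of 919 bp. The regions just inside with the longest mean control peak were a 3741 bp region in Slc22a23, a 3379 bp region 101 kb from Nampt, a 4353 bp region 6.91 kb from Lrrc8c and a 3940 bp region in Kcnmb3. Each of these lacked the peak in a single control library, WT control 1 for the Nampt and Lrrc8c regions and ACSS2-/- control 2 for the other pair, so the threshold did not separate weak from strong regions cleanly.

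Lost regions were narrower than kept ones. Their median width was 1359.5 bp, with quartiles of 989 and 1899 bp and a range of 448 to 6610 bp, against a median of 2356 bp in kept and 1197.5 bp in gained regions. Kept regions merge peaks of more libraries than lost ones, so part of this difference in width follows from the rule. The control peak inside a lost region, averaged over the control libraries that had one, had a median of 812 bp, against 1444 bp in kept regions. Together the lost regions spanned 3.54 Mb.

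Loss became rarer step by step as the control peak grew longer. Among regions of at least 3 control libraries, 47.2% were lost when the mean control peak was under 500 bp, 39.2% from 500 to 750 bp and 29.0% from 750 to 1000 bp. The share was 19.6% from 1000 to 1500 bp, 12.4% from 1500 to 2000 bp and 4.11% above 2000 bp. The share of kept regions ran the other way, from 18.9% in the shortest class to 82.0% in the longest. Loss was thus most frequent among the shortest control peaks, yet 78 of 1898 regions with the longest control peaks were also without a peak in all 4 UUO libraries.

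The loss was spread over the genome. Lost regions made up between 18.9% of the shared control regions on chromosome 11 and 30.2% on chromosome 3, with the other 17 autosomes in between. A total of 1485 lost regions, 64.2%, lay inside a protein-coding gene, as did 63.7% of kept regions, 63.7% of all distal regions and 54.4% of gained regions. The share lost was 22.8% inside genes and 22.5% between genes. Position relative to genes was therefore nearly the same in lost, kept and all distal regions. The 829 lost regions between genes lay at a median of 28.8 kb from the nearest protein-coding gene.

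The neighbours of lost regions were counted next. Another lost region lay within 50 kb of 849 of them, 36.7%, beside 26.9% of kept, 31.0% of shared control and 25.3% of all distal regions. A kept region was within 50 kb of 998 lost regions, 43.1%, beside 57.8% of kept, 52.7% of shared control and 47.2% of all distal regions. A gained region was within 50 kb of 92 lost regions, 3.98%, beside 7.73% of shared control and 9.35% of all distal regions. Lost regions were thus closer to other lost regions, and farther from gained ones, than shared control regions or distal regions at large; these are counts from the lists that chose them, with no test. A UUO peak came within 1 kb of 316 lost regions, 13.7%, and within 5 kb of 1026, 44.3%, beside 23.2% and 54.7% of all distal regions with a further UUO peak at those distances.

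H3K9ac was not used to choose the regions and is the other readout of them, although the study reports it from the same kidneys as H3K9cr, so it is not a separate set of animals. Among the 2314 lost regions an H3K9ac peak was present in 312 (13.5%) in the WT control library and in 571 (24.7%) in the ACSS2-/- control library. In UUO kidneys the number was 13 (0.562%) in WT UUO 1, 20 (0.864%) in WT UUO 2, 20 (0.864%) in ACSS2-/- UUO 1 and 74 (3.20%) in ACSS2-/- UUO 2. Every UUO library lay below both control libraries, so the groups did not overlap, and the highest UUO value came from the ACSS2-/- UUO 2 library. With genotypes pooled, the mean share was 19.1% ± 7.91 (SD, n = 2) in control and 1.37% ± 1.23 (SD, n = 4) in UUO. This was a 13.9-fold difference and a fall of 17.7 percentage points (UUO minus control, -17.7). The two-sided exact permutation p was 0.0667, which is the smallest that these 6 libraries allow. With 1 control library per genotype, the SD of this and the following control means also holds the difference between genotypes. Without ACSS2-/- UUO 2 the UUO mean was 0.763% against 19.1% in control, which nearly doubled the fold, so its size depends on that library. In whole kidneys, fewer cells carrying a mark and less mark per cell cannot be told apart.

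The same libraries had fewer H3K9ac peaks elsewhere too. Among the 34281 distal regions that were not lost, kept or gained the share was 6.51% and 14.2% in WT and ACSS2-/- control and 0.837%, 1.84%, 1.20% and 5.24% in the UUO libraries in the order above, a 4.55-fold difference of means, which was 8.04-fold without ACSS2-/- UUO 2 and 2.86-fold without the ACSS2-/- control. With all 6 libraries it lay between the folds of lost and kept regions. Among kept regions the H3K9ac share was 60.6% and 74.4% in WT and ACSS2-/- control, and 28.1%, 35.6%, 31.4% and 53.7% in the UUO libraries in the order above. The mean fell from 67.5% ± 9.78 (SD, n = 2) to 37.2% ± 11.4 (SD, n = 4), a 1.81-fold difference with an exact permutation p of 0.0667. Relative to kept regions, the share in lost regions minus the share in kept regions was -48.4 points in control and -35.8 points in UUO, a difference of 12.6 points with an exact permutation p of 0.333. On a log2 scale, a setting added after the values were seen, the ratio of the shares went from -1.88 in control to -5.07 in UUO, a difference of -3.19 with an exact permutation p of 0.0667. Kept regions thus lost more percentage points and lost regions lost the larger fraction of their H3K9ac, and the sign of the relative comparison depends on the scale.

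Keeping equal numbers of H3K9ac peaks moved this value. When only the 15988 longest peaks of each H3K9ac library were used, 90 (3.89%) and 139 (6.01%) lost regions had a peak in WT and ACSS2-/- control. The UUO counts were 13 (0.562%) in WT UUO 1, 10 (0.432%) in WT UUO 2, 13 (0.562%) in ACSS2-/- UUO 1 and 17 (0.735%) in ACSS2-/- UUO 2. The groups still did not overlap, with means of 4.95% (n = 2) and 0.573% (n = 4), an 8.64-fold difference; the difference in points shrank to -4.38. Kept regions differed 1.34-fold in that setting. The shortest peak used was 696 bp in WT and 1079 bp in ACSS2-/- control. It was 302, 389, 349 and 600 bp in the UUO libraries in the order above. The number of peaks and the shortest length allowed thus changed together, and their effects were not separated.

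H3K9ac followed the number of UUO libraries that had kept H3K9cr. Among regions of at least 3 control libraries, the WT control H3K9ac library marked 13.5% of those with H3K9cr in 0 UUO libraries, 23.2% with 1, 28.4% with 2, 40.3% with 3 and 68.6% with 4. In WT UUO 1 the same classes had H3K9ac at 0.562%, 1.89%, 2.63%, 6.02% and 36.8%. In ACSS2-/- UUO 2 they had it at 3.20%, 8.31%, 14.7%, 26.4% and 64.4%. Lost regions were at the low end in control and in UUO kidneys alike, so the order was already present in control kidneys.

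No H3K9ac peak in any of the 6 libraries was seen at 1593 lost regions, 68.8%, close to the 71.7% of all distal regions and above the 17.0% of kept regions. An H3K9ac peak in at least 1 UUO library was found at 115 lost regions, 4.97%, beside 13.9% of all distal regions, and in all 4 UUO libraries at 0, beside 2.37% of all distal regions. The share never acetylated was thus near that of all distal regions, and the share acetylated after obstruction was lower. All distal regions include the kept regions, which were chosen for H3K9cr in UUO. Kept regions supplied 3021 of the 5894 distal regions with H3K9ac in at least 1 UUO library, so this contrast partly follows from the rule. Of the 189 lost regions with H3K9ac in both control libraries, 140 had it in no UUO library. That was 6.05% of lost regions, beside 3.30% of all distal regions and 8.98% of kept regions. As a share of the regions acetylated in both control libraries it was 74.1% in lost, 16.0% in kept and 31.9% in all distal regions. The 189 were only 8.17% of lost regions. The median control H3K9cr peak was 812 bp in lost and 1444 bp in kept regions, so these shares are not matched for peak length. All UUO H3K9ac lists were also shorter than both control lists.

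Genotype was compared within UUO. The H3K9ac share of lost regions was 0.713% ± 0.214 (SD, n = 2) in WT UUO and 2.03% ± 1.65 (SD, n = 2) in ACSS2-/- UUO, a difference of 1.32 points with an exact permutation p of 0.667, where 0.333 is the smallest possible. The values met at 0.864% in WT UUO 2 and ACSS2-/- UUO 1, and the difference came from ACSS2-/- UUO 2; without that library it was 0.151 points. In 15 of 20 alternatives with all 4 UUO libraries the exact permutation p was 0.333, with the ACSS2-/- mean above the WT mean in all 20. With 2 libraries per genotype such values neither show nor exclude a genotype difference.

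The lost regions with the longest control peaks show the pattern in single places. The longest lay inside Ap1g1, the gene of a clathrin adaptor subunit that sorts cargo at the Golgi, at chr8:109798918-109805117. H3K9cr peaks covered 2978 and 4073 bp of it in WT control and 5408 and 4624 bp in ACSS2-/- control, and H3K9ac peaks covered 1465 bp in WT and 1297 bp in ACSS2-/- control. It had no peak of either mark in any UUO library.

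A 6610 bp region inside Ppargc1a, at chr5:51536131-51542740, was the widest of all lost regions. Ppargc1a encodes PGC-1alpha, a coactivator that drives mitochondrial biogenesis and fatty acid oxidation in tubule cells. H3K9cr covered 1818 and 2407 bp in WT control and 6087 and 4935 bp in ACSS2-/- control, and H3K9ac covered 361 bp in WT and 1982 bp in ACSS2-/- control. Peaks were broader in the ACSS2-/- than in the WT control libraries for both marks there, and absent from all 8 libraries for H3K9cr and H3K9ac of UUO kidneys. The broader peaks were not particular to this region. Over lost regions with a peak, the median H3K9cr cover was 1023 and 776.5 bp in ACSS2-/- control and 653.5 and 644 bp in WT control. For H3K9ac it was 621 bp in ACSS2-/- and 524.5 bp in WT control.

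Further regions with the longest control peaks had H3K9cr without H3K9ac. In Syn3, which encodes a synapsin, the peaks at chr10:86100199-86105641 covered 3429 and 3868 bp in WT control and 5250 and 3342 bp in ACSS2-/- control. In Phactr1, a regulator of actin and protein phosphatase 1, they covered 5348, 2205, 3650 and 4378 bp at chr13:42719555-42725859 in the same order of libraries. In Upp2, a uridine phosphorylase, they covered 3915, 4105, 3831 and 1757 bp at chr2:58751104-58755985. A region 57.0 kb from Dock1, a Rac activator, at chr7:134608768-134613679, had 2770, 4093, 4184 and 3210 bp. No H3K9ac library, control or UUO, had a peak in any of these 4 regions, so long crotonylated stretches were lost where acetylation had not been called.

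Rbpms and Syde2 held the remaining pair of the 8 longest, and both were acetylated in control kidneys. The region in Rbpms, which encodes an RNA-binding protein, lay at chr8:33877741-33882806 with H3K9cr over 2683 and 3478 bp in WT and 4964 and 2088 bp in ACSS2-/- control and H3K9ac over 908 and 1402 bp. The region in Syde2, a GTPase-activating protein gene, lay at chr3:145991062-145995690 with H3K9cr over 2727, 2340, 4569 and 3388 bp and H3K9ac over 1244 and 2058 bp. Both were without a peak of either mark in every UUO library.

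The longest lost regions with acetylation in both control libraries and in no UUO library included 4 more genes. In Slc22a23, an organic ion transporter family member, chr13:34265176-34268916 carried H3K9cr over 3660 and 2345 bp in WT control, 3067 bp in ACSS2-/- control 1 and 0 bp in ACSS2-/- control 2, with H3K9ac over 467 and 828 bp. In Mob3b, a kinase activator gene, chr4:35133148-35137115 carried H3K9cr over 2238, 2456, 3584 and 3634 bp and H3K9ac over 347 and 559 bp. In Pde7a, a cyclic AMP phosphodiesterase, chr3:19262268-19265588 carried H3K9cr over 2328, 2781, 3165 and 3207 bp and H3K9ac over 1408 and 2399 bp. In the Mob3b and Pde7a regions the acetylated stretch was the shorter of the 2 marks in both genotypes, as it was in the Ap1g1, Ppargc1a, Rbpms, Syde2 and Plcb1 regions. The last was Plcb1, a phospholipase C gene, at chr2:134930526-134933859, with H3K9cr over 2467, 2624, 2723 and 2578 bp, the most even values among the 8, and H3K9ac over 592 and 668 bp.

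Each lost region was assigned to the nearest protein-coding gene, giving 1672 genes. Of these, 1260 had 1 lost region, 273 had 2, 139 had at least 3 and 22 had at least 5. A kept region was also assigned to 759 of the genes, 45.4%. Some distal regions of these 759 genes were thus lost and others kept. The same share over other genes was not counted, so the 45.4% has no background beside it. Regions that were neither lost nor kept do not enter this count.

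Glis3 had the most, with 9 lost and 6 kept regions among 22 shared by at least 3 control libraries, and 1 gained region besides. Glis3 encodes a zinc finger transcription factor whose loss causes cystic kidneys and diabetes. Of its lost regions 8 lay inside the gene at chr19:28258851-28680265, and 3 had a peak in all 4 control libraries. The longest, at chr19:28549729-28552617, had H3K9cr over 1748 and 837 bp in WT control and 2522 and 1126 bp in ACSS2-/- control, with H3K9ac over 646 bp in ACSS2-/- control only. None of the 9 was acetylated in both control libraries, and one, at chr19:28347122-28348834, had an H3K9ac peak of 372 bp in WT UUO 2 and in no other library.

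Bnc2, a zinc finger gene of mesenchymal cells, had 8 lost, 1 kept and no gained region. Of these 8, 5 had a peak in all 4 control libraries. A run of 4 lost regions stood within chr4:84448634-84459192, and the widest, at chr4:84456060-84459192, had H3K9cr over 982 and 1845 bp in WT control and 2788 and 2105 bp in ACSS2-/- control and H3K9ac over 542 and 778 bp. The region at the other end of the run, chr4:84448634-84451413, had H3K9cr over 2347, 1784, 2151 and 1443 bp and no H3K9ac. Of the 2 between them, 1 had no H3K9ac and the other had 542 bp in WT control only, so lost regions within this run differed in acetylation.

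Ppargc1a had 7 lost and 2 kept regions among 15 shared control regions and no gained region, and 6 of the 7 lay inside the gene. Besides the widest region, chr5:51590063-51593736 had H3K9cr over 1493 and 1584 bp in WT control and 3674 and 2240 bp in ACSS2-/- control with no H3K9ac. The region at chr5:51545589-51546876 had H3K9cr over 0 and 603 bp in WT control and 1288 and 1005 bp in ACSS2-/- control, and H3K9ac over 406 bp in WT control, 1176 bp in ACSS2-/- control and 314 bp in ACSS2-/- UUO 2. Only 2 of the 7 had any H3K9ac peak in UUO, both in that single library.

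The next genes had 6 lost regions each, apart from Pard3, which had 5 and was taken from the 15 genes with 5 because its lost regions were the longest in total. Zeb2, a repressor of epithelial genes, had 3 inside and 3 beyond the gene, the largest at chr2:45251731-45255110, 134 kb away, with H3K9cr over 1898 and 1760 bp in WT and 3380 and 813 bp in ACSS2-/- control. Arhgap32, a GTPase-activating protein gene, had 4 inside, and its widest, at chr9:32048111-32050907, had H3K9cr over 1940, 1732, 1804 and 561 bp. All 6 lost regions of Slc22a23 lay inside the gene, and each had a peak in exactly 3 control libraries. Those of Ptprg, a receptor tyrosine phosphatase, were also all inside, with 1 of the 6 in all 4 control libraries. Pard3, which organises epithelial polarity, held a 6198 bp region at chr8:127339592-127345789 with H3K9cr over 4505 and 1905 bp in WT and 5125 and 482 bp in ACSS2-/- control. These 8 genes are mostly long, from 134 kb for Zeb2 to 689 kb for Ptprg, and long genes have more room for assigned regions.

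The ends of the assigned genes mostly kept the mark. Among the 1672 genes, 1389 had an H3K9cr peak at an end in at least 3 control libraries, and 91.8% of those had one in all 4 UUO libraries; over all protein-coding genes with such an end the share was 93.1%. The end was without a peak in every UUO library for 21 of the 1389 genes, 1.51%, against 0.920% of the 12610 protein-coding genes with such an end. The 21 included Slc5a12, a proximal tubule lactate transporter, Bhmt and Bhmt2, which remethylate homocysteine, Apob and Ttr. Loss at the gene's own ends was thus rare at these genes, as it was over all protein-coding genes with such an end.

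Gene lists for kidney cell types and functions were then read against the assigned genes, by count only. Regions assigned to 70 proximal tubule genes made up 32 of the lost regions, 1.38%, beside 0.404% of kept, 0.260% of gained and 0.577% of all distal regions. They belonged to 22 genes, led by Slc22a12 with 5, Lrp2 with 4 and Ces1f with 3. Of the 75 regions of these genes shared by at least 3 control libraries, 42.7% were lost, beside 22.7% over all genes. Counting any list gene within 100 kb in place of the nearest gene gave 2.59% of lost, 1.17% of kept and 1.32% of all distal regions.

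The longest control peaks near proximal tubule genes lay close to metabolic enzymes. Near Acsm1, a medium-chain acyl-CoA synthetase gene, chr7:119666504-119669548 had H3K9cr over 1588 and 1479 bp in WT control and 3045 and 2290 bp in ACSS2-/- control. Near Pck1, the gluconeogenic phosphoenolpyruvate carboxykinase, chr2:173176837-173178741, 17.6 kb from the gene, had 1771, 1849, 1642 and 1689 bp. Near Fbp1, fructose bisphosphatase, chr13:62892508-62894916 had 1972, 1442, 2023 and 1090 bp. These 3 regions had a peak in all 4 control libraries, and only the Pck1 region had H3K9ac, over 965 bp in ACSS2-/- control.

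Transporter genes of the brush border and basolateral membrane followed. Inside Lrp2, the gene of the endocytic receptor megalin, chr2:69569059-69572295 had H3K9cr over 1715 and 773 bp in WT and 2069 and 1918 bp in ACSS2-/- control. The 5 regions of Slc22a12, the urate transporter URAT1, lay 16.2 to 86.6 kb away from it, the longest at chr19:6598065-6600120 with 2056, 967, 1809 and 687 bp. Other genes with 1 or 2 lost regions included Slc22a8, Slc22a2, Slc7a7, Slc7a8, Slc9a3, Slc4a4, Slco1a6, G6pc, Gatm, Dao and Agxt2. Of the 32 regions, 17 had a peak in all 4 control libraries and 3, at Acsm2, Dao and Dpep1, had H3K9ac in both control and no UUO libraries.

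The list of fatty acid oxidation and acyl-CoA genes held 15 lost regions, 0.648% of lost, 0.303% of kept and 0.328% of all distal regions, at 6 of 35 genes. Apart from the 7 of Ppargc1a they were 3 of Acsl1, 2 of Decr1 and 1 each of Acox2, Eci2 and Ppara. The largest outside Ppargc1a, 81.8 kb from the long-chain acyl-CoA synthetase gene Acsl1 at chr8:46385546-46389198, had H3K9cr over 1716 and 1932 bp in WT and 3653 and 2424 bp in ACSS2-/- control. In Ppara, the nuclear receptor that switches on fatty acid oxidation, chr15:85742781-85745186 had 1330, 807, 2406 and 874 bp and H3K9ac in both control and no UUO libraries. No lost region was assigned to Acss2, and of the 48 shared control regions of the list 31.3% were lost. Ppargc1a carried much of this: without it the list held 8 lost regions, 0.346% of lost, 0.262% of kept and 0.250% of all distal regions, and 24.2% of its 33 shared control regions were lost, beside 22.7% over all genes.

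Genes of kidney transcription factors and nuclear receptors had 31 lost regions, 1.34% of lost, 0.949% of kept, 0.130% of gained and 1.05% of all distal regions, at 21 of 43 genes. The longest was a 5715 bp region in Esrrg, the oestrogen-related receptor gamma of the distal nephron, at chr1:187756074-187761788, with H3K9cr over 1995 and 1550 bp in WT and 5161 and 2428 bp in ACSS2-/- control. In Hnf4g, a hepatocyte nuclear factor gene, chr3:3611978-3614612 had 2447, 1580, 2247 and 2275 bp. Near Klf15, a glucocorticoid-responsive factor, chr6:90512132-90515233 had 1392, 728, 3087 and 3063 bp, and H3K9ac in both control and no UUO libraries. Mecom had 5 lost regions, Thrb, Ppard, Rarb and Emx2 had 2 each, and Pax2, Pax8, Rxra and Irx1 had 1 each, and of the 120 shared control regions of the list 25.8% were lost, close to the 22.7% over all genes.

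The distal nephron list held 14 lost regions, 0.605%, beside 0.606% of kept and 0.647% of all distal regions, so its share was close to the background, and 20.3% of its 69 shared control regions were lost. They belonged to 7 of 52 genes, with Mecom, Esrrg and Tfcp2l1 shared with the list above, and 2 regions inside Slc12a3, the thiazide-sensitive cotransporter of the distal convoluted tubule. In the larger of these, chr8:94342606-94345526, H3K9cr covered 1445 and 999 bp in WT and 1689 and 2262 bp in ACSS2-/- control. The region nearest to Kcnj16, a potassium channel gene 152 kb away, at chr11:110812994-110816428, had 482, 1564, 3435 and 2054 bp. The 16 podocyte genes held 10 lost regions, 0.432% of lost, 0.262% of kept and 0.243% of all distal regions, and 33.3% of their 30 shared control regions were lost. They were 3 near Podxl, 2 in Npnt and 1 each at Magi2, Plce1, Clic5, Synpo and Vegfa. In Magi2, a scaffold of the slit diaphragm, chr5:20293800-20295412 had 1321, 1236, 1613 and 1566 bp in the control libraries.

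The leukocyte, injured tubule, endothelial, stromal and other-tissue lists held between 0 and 3 lost regions each. Leukocyte genes had 3 lost regions, 2 of Csf1r and 1 of Ptprc, which were 0.130% of lost, 0.0606% of kept, 0.144% of all distal and 0.779% of gained regions. They were 42.9% of only 7 shared control regions of the list, and each of these 3 lacked a peak in WT control 1. Injured tubule genes had 1, whose nearest gene was Myc at 274 kb, beside 16 kept and 9 gained regions, and of their 24 shared control regions 4.17% were lost. Endothelial genes had 2, 53.9 kb from Kdr and in Ptprb, which were 0.0864% of lost and 0.255% of all distal regions, and stromal genes 1, in Pdgfrb, 0.0432% and 0.0780%. Of the 12 shared control regions of endothelial genes 16.7% were lost, as were 16.7% of the 6 of stromal genes, beside 22.7% over all genes. The 11 genes of other tissues had no lost region.

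Because the gene table gives 1 start and 1 end per gene, some distal regions hold another transcription start. A RefSeq promoter window, 250 bases before to 50 after a start, overlapped 25 lost regions, 1.08%, against 11.5% of kept, 3.64% of gained and 2.01% of all distal regions. The windows at lost regions had a median GC content of 44.3% and a median of 3 CG dinucleotides. Windows at kept regions had 59.7% and 17, and all 31396 windows had 53.0% and 7. The internal starts within lost regions were thus poor in CG, and those within kept regions rich.

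Windows were searched on both strands for short letters of known binding sites. In the 25 windows at lost regions the steroid receptor half-site pair ACANNNTGT was in 3, 12%, against 6.90% of all windows, and the forkhead site TGTTTAC in 2, 8%, against 3.71%. The AP-1 site TGANTCA (7.84% of all windows), the CTCF core CAGNGGGCG (3.96%), the TEAD site CATTCCA (4.32%), the RUNX site TGTGGTT (5.32%) and the AP-2 site GCCNNNGGC (16.7%) were each in 1. The letters CAAAGTCCA of HNF4 (0.487%), GGTCAAAGG of a nuclear receptor direct repeat (0.357%), TCAAGGTCA of ERR (0.417%), AGGAAGT of ETS (9.37%), GGANTTTCC of NF-kB (1.26%), TTGCGCAA of C/EBP (0.178%) and AACCNGTT of GRHL (2.09%) were in none. With 25 windows these counts are a description of letters only.

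Of these, 6 windows lying wholly inside lost regions are shown, chosen after their values were seen, as the places where regulatory sequence under the lost mark can be read. Each is the 250 bases before a RefSeq start in GRCm38.p6, 5′ to 3′ on the strand of the gene, and capitals mark the motif matches. The first 3 have none. The window of Upp2 (chr2:58754934-58755183, plus strand) lies in the long H3K9cr-only region described above. The window of Papss2, which makes the sulfate donor of sulfation, is chr19:32619755-32620004 on the plus strand, in a region with H3K9cr over 979 and 985 bp in WT and 2099 and 1145 bp in ACSS2-/- control and H3K9ac over 898 and 1095 bp. The window of Myo18a, an unconventional myosin, is chr11:77776985-77777234 on the plus strand, in a region with H3K9cr over 463, 1350, 1571 and 2291 bp and H3K9ac over 1048 and 1685 bp. Neither the Papss2 nor the Myo18a region had H3K9ac in UUO.

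Upp2: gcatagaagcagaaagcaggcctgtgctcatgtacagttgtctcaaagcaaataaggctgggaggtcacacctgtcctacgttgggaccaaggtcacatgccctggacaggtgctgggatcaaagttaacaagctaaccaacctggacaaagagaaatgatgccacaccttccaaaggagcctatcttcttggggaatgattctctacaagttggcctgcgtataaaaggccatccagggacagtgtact

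Papss2: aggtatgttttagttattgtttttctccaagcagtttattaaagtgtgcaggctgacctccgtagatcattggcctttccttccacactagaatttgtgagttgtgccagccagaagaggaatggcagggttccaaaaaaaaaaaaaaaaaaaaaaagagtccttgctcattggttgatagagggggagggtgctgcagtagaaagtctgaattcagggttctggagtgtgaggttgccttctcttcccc

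Myo18a: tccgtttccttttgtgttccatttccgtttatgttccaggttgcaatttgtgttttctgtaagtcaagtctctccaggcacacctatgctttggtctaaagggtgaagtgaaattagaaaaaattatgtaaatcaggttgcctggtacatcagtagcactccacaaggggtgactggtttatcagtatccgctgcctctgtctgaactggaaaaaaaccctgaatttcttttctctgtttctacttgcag

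The other 3 windows carry a match. In Limch1, an actomyosin regulator, chr5:66857219-66857468 on the plus strand has the forkhead letters 149 bases before the start, and its region had H3K9cr over 434 and 347 bp in WT and 1559 and 375 bp in ACSS2-/- control and no H3K9ac. In Art3, an ADP-ribosyltransferase family gene, chr5:92387884-92388133 on the plus strand has the half-site pair 187 bases before the start, with H3K9cr over 0, 431, 1023 and 519 bp and no H3K9ac. In Dock9, a Cdc42 activator, chr14:121698418-121698667 on the minus strand has the half-site pair 150 bases before the start. Its region had H3K9cr over 586, 652, 861 and 811 bp in control, and H3K9ac over 791 and 870 bp in control and 870 and 305 bp in WT UUO 1 and WT UUO 2. Dock9 was thus an exception in which acetylation was still called in both WT UUO libraries at a region without H3K9cr.

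Limch1: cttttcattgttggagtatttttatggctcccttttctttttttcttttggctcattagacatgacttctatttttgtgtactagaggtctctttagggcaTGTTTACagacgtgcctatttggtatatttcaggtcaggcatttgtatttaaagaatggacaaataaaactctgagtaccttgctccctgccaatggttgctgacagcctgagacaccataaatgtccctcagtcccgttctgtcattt

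Art3: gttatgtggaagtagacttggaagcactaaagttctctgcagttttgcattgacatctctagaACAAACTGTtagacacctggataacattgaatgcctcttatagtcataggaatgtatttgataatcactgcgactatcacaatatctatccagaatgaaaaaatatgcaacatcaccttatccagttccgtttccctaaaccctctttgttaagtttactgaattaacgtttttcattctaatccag

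Dock9: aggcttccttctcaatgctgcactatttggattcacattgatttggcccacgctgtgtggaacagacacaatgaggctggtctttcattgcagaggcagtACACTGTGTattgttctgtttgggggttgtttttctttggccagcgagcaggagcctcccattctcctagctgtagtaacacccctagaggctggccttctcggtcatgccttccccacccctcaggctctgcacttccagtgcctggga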

How the data were processed

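The authors aligned reads with Bowtie2 to mm10, called peaks in each library with MACS2 and annotated them with ChIPseeker. Their peak lists as deposited were the input; the lists were used as positions only, with read depth, signal and input unknown. Peaks of the 8 H3K9cr libraries were merged on autosomes, and gene ends came from RefSeq GRCm38.p6. A peak counted for a region when they overlapped by at least 1 bp. Shares of regions with an H3K9ac peak were compared by exact permutation over libraries, two-sided. Named were the 8 longest regions by mean control peak, the 8 longest with H3K9ac in both control and no UUO libraries, the 8 genes with most regions, the longest 3 of each gene list, and the regions nearest the threshold; all other names were chosen after values were seen. The members and the gene lists were chosen with earlier results of these data known. The steps were tested on simulated data. Python 3.11.15, numpy 2.4.6 and pandas 2.3.3 were used. Alternatives are given under sensitivity. No genome sequence was used, so sequence could be read only in promoter windows. Expression and mouse measurements of the study were not analysed here. Some genes and a motif that were looked at are not reported here.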

Additional observations from a re-analysis of the deposited data

Results flagged for a closer look

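The groups of 4 libraries (H3K9cr control, H3K9cr UUO and H3K9ac UUO) were looked at for a library far from the rest, in 27 groups and measures, by the gap to the nearest library over the range of the group. By chance about 1 in 20 groups would give such a library. The share of lost regions with an H3K9ac peak in ACSS2-/- UUO H3K9ac 2 was 3.20%, and the ratio of 0.885 marked it as far from the other 3 UUO libraries, at 0.562%, 0.864% and 0.864%. It has the longest H3K9ac list of UUO kidneys, 24571 peaks, is the only H3K9ac library of UUO kidneys with peaks at the 4 Y-linked genes, and decides the genotype difference. Between UUO and control the share differed by -10.3 points in the 2 H3K9ac libraries with these peaks and by -23.9 points in the 4 without, a split added after the values were seen. The first value is WT control, 13.5%, against ACSS2-/- UUO 2. The second is ACSS2-/- control, 24.7%, against the other 3 UUO libraries. Each side has 1 control library and changes genotype as well, so sex marks and genotype cannot be told apart here. The share of gained regions with an H3K9cr peak in ACSS2-/- UUO H3K9cr 2 was 48.2%, and the same ratio of 0.885 marked it, against 95.7%, 90.3% and 92.3% in the other UUO libraries. It has the shortest H3K9cr list, 27530 peaks, and the next shortest of UUO kidneys, WT UUO 2 with 30406 peaks, had 90.3%. Gained regions were selected on these same lists with 1 UUO library allowed to be missing. The mark of a far library therefore rests on the lists that chose the regions and is no separate observation. The cause was not tested.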

How the results depend on the processing

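The number of lost regions moved with the rule. It was 2314 by the rule, 1421 with a window of 10 kb around gene ends, 947 with a peak required in all 4 control libraries, 1467 when every H3K9cr library was reduced to as many longest peaks as the shortest list, where only 1090 of the 2314 regions (47.1%) overlapped a lost region, and 4479 from ACSS2-/- libraries alone (2 of 2 control, 0 of 2 UUO). Leaving out 1 library at a time gave 2474–4577, by construction more since fewer libraries had to meet the rule; it was 4577 without WT control 1, 4210 without WT control 2, 3908 without ACSS2-/- control 2 and 3113 without ACSS2-/- control 1. Counts of 1949 to 3356 came from a 1 kb window, protein-coding ends only, no UUO peak within 1 kb, WT libraries alone and libraries split by Y-chromosome peaks. The 1949 came from libraries with any Y-chromosome peak, which include ACSS2-/- control 2 without the Y-linked genes. Of the 2314 regions, 100% were overlapped in the first 2 settings and 86.3% in the third. The share was 54.8% with WT libraries alone, 63.9% with any Y-chromosome peak, 77.5% with peaks at Y-linked genes and 57.6% without them.

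The H3K9ac share of lost regions, UUO minus control, was -17.7 points and fell in every alternative, from -23.9 to -4.38; leaving out 1 library at a time gave -23.3 to -12.1. The smallest, -4.38, came with equal numbers of longest H3K9ac peaks. Lost minus kept regions was 12.6 points, 9.86–17.5 without 1 library at a time, 5.98 with equal numbers of longest H3K9ac peaks, 7.56 with equal numbers of longest H3K9cr peaks, and reversed to -3.19 as a log2 ratio, an alternative added after the values were seen, as were the splits by Y-linked genes. In points kept regions fell by more than lost ones, -30.3 against -17.7, and in fold lost regions differed by more, 13.9 against 1.81.

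The genotype difference within UUO was 1.32 points, 0.151–2.48 without 1 library at a time, 0.151 with equal numbers of H3K9ac peaks and 3.08 with regions chosen from WT H3K9cr libraries alone. In the replicate block, which pairs label numbers of different animals and so has no biological pairing behind it, the paired differences were 0.303 and 2.33 points, with a mean of 1.32 and an exact p of 0.5. The value of 0.151 came without ACSS2-/- UUO H3K9ac 2.

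The share of lost regions inside genes, 64.2%, was 67.8% with the 10 kb window, 60.3% with protein-coding ends only and 66.9% from ACSS2-/- libraries alone, and 63.7–65.8% without 1 library at a time. The share nearest a proximal tubule gene, 1.38%, was 2.59% when any list gene within 100 kb counted, 0.985% with the 10 kb window, 1.80% with a peak in all 4 control libraries, and 1.22–1.41% without 1 library at a time. The cause of these moves was not tested. Libraries without any Y-chromosome peaks were not run alone, because only 1 H3K9cr control was left.

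Limits: H3K9ac control is 1 library per genotype, so a test cannot go below an exact p of 0.0667. The regions were selected on H3K9cr in the same libraries, and a short peak missed by chance in UUO libraries also meets the rule. Time of harvest and pooling are not given in the labels of these libraries, read depth is unknown, and list length differs between libraries. Nearest-gene assignment favours long and isolated genes, and gene lists were set with results known.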

Other observations

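The H3K9cr lists shrink in their distal part when they are short. Distal peaks were 39.5% of the list in ACSS2-/- UUO 2 with 27530 peaks, and 54.1% in ACSS2-/- control 1 with 45014 peaks. H3K9ac lists were distal for 34.8% and 43.2% of peaks in control and for 18.3%, 22.6%, 20.5% and 32.3% in UUO kidneys.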
